A study of Mus musculus with 2 samples.

Results

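The genes described here encode the proteins of the cytoplasmic ribosome. They were chosen by symbol alone, as Rps or Rpl followed by digits and at most 1 lower-case letter, together with *Rpsa*, *Rplp0*, *Rplp1* and *Rplp2*, and symbols ending in -ps were left out. The rule gave 83 of the 55450 genes in the deposited tables, 32 of the small and 51 of the large subunit. Of the 83, 80 were annotated as protein-coding, while *Rps4l*, *Rpl32l* and *Rpl6l* were annotated as processed pseudogenes. Single-nucleus or single-cell RNA libraries were made from the cerebral cortex of C57BL/6 mice, 1 library from control mice and 1 from mice with white matter injury (WMI). Per the labels, WMI was produced by closing the right common carotid artery on postnatal day 7 with 1 h of hypoxia, and cortex on that side was taken from both groups on postnatal day 14, when the mice were 2 weeks old. The control label carries the same protocol text, and only the treatment label separates the groups. The labels describe nuclei, whereas the study's methods describe enzymatically dissociated cells, an earlier operation, an earlier collection and a longer hypoxia, and they mention replicates of each group, whereas the labels and files give 1 sample each in which single animals are not marked. With 1 library per group, no difference below has a replicate check, and no test across animals was possible. The intervals given are exact 95% intervals of the counts of UMIs (unique molecular identifiers, each marking 1 captured RNA molecule) and cover counting error only.

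A ribosome is built from a small subunit, which reads the mRNA, and a large subunit, which joins amino acids. Its proteins are made in the cytoplasm, imported into the nucleolus for assembly with ribosomal RNA, and exported again. Their mRNAs are spliced, long-lived and mostly cytoplasmic. Most of these mRNAs begin with a terminal oligopyrimidine (TOP) run, a C followed by pyrimidines at the 5′ end, through which their translation is raised or lowered together in response to growth signals.

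For 6 members, the sequences at a listed start show this feature and its limits. These members were picked because they carried the results below: *Rpl38* was among the most counted members, *Rps21* and *Rpl37a* had some of the highest ratios of WMI to control, *Rpl4* and *Rpl12* some of the lowest, and *Rpl15* differed most between cell classes. Each window holds the 30 bases before and the first 20 bases from a RefSeq start (GRCm38.p6, coding strand). Capitals mark a run that begins with C within 3 bases of the start and holds at least 5 bases, all C or T.
Rpl38 (chr11:114668550-114668599, plus strand): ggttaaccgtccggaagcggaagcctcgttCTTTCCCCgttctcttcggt
Rps21 (chr2:180257349-180257398, plus strand): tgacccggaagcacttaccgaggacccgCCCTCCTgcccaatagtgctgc
Rpl37a (chr1:72711230-72711279, plus strand): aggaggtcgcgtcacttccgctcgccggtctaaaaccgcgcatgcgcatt
Rpl15 (chr14:18270967-18271016, minus strand): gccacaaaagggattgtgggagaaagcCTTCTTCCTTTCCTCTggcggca
Rpl12 (chr2:32961682-32961731, plus strand): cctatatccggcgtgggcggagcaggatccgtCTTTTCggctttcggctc
Rpl4 (chr9:64173357-64173406, plus strand): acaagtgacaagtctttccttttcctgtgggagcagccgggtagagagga
Such a run was found at 26 of the 73 starts listed for 61 members (35.6%), against 11.5% of the 32778 other starts in the same table. A start without capitals says only that no such run lies at that listed base. Set against the gene starts in GENCODE, the *Rpl37a* window ended before the gene, and those of *Rpl38*, *Rpl12* and *Rpl15* lay inside it. The windows of *Rps21* and *Rpl4* held the gene start. In *Rpl4* a C followed by pyrimidines lies at that gene start, and it is not in capitals because the listed start lies further on. The median log2 ratio of WMI to control was 0.53 in the 25 members with a run at a listed start and 0.51 in the 36 without one there. Members without one there may hold a run at another start, so these medians cannot show whether the run goes with the ratio.

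The control library held 10288 barcodes and 66470806 UMIs, and the WMI library 8354 barcodes and 60568639 UMIs. After removal of shallow barcodes and predicted doublets, 8755 control and 7571 WMI cells remained, with a median of 4207 and 4973 UMIs. The 2 libraries shared 36 barcodes. They also differed in the sexes of their cells and in mitochondrial RNA, and with 1 library per group such differences cannot be told apart from the injury. In the control library 6462 kept cells had a Y-linked UMI and no *Xist* or *Tsix* UMI and 3 had the reverse, while in the WMI library these numbers were 1933 and 2283, and 2568 WMI cells had both. Mitochondrially encoded genes made up 0.137% of the UMIs of kept control cells and 0.608% of those of kept WMI cells. Of 31 clusters, formed without the ribosomal protein genes, 26 were named from markers, and clusters 0, 2 and 3 stayed unnamed and came almost entirely from 1 library.

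Ribosomal protein mRNAs were a small part of the RNA counted in most cells. Their share was 0.146% of the UMIs of kept control cells (80931 UMIs) and 0.218% of those of kept WMI cells (116489 UMIs). A typical control cell had 8 such UMIs and a typical WMI cell 12, spread over a median of 8 and 11 different members. Only 0.0914% of control cells and 0.0264% of WMI cells had none. Because all of these cell classes use ribosomes, no class lacks the mRNAs, and background from free RNA could not be read from such a class.

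The share differed between classes, and the order was nearly the same in both libraries. It was lowest in excitatory neuron-like cells, at 0.0946% in control (95% interval 0.0936% to 0.0957%) and 0.128% in WMI (0.127% to 0.129%). Inhibitory neuron-like cells followed, with 0.103% (0.0999% to 0.106%) and 0.149% (0.145% to 0.153%). Within the oligodendrocyte (OL) lineage, mature OL-like cells had 0.135% and 0.156%. OPC-like cells, the oligodendrocyte precursors, had 0.166% and 0.240%, and cells of the stage between, called pre-OL-like, had 0.175% and 0.291%. In control the intervals of OPC-like cells (0.160% to 0.172%) and pre-OL-like cells (0.167% to 0.184%) overlapped, whereas in WMI they did not (0.234% to 0.247% and 0.284% to 0.299%). Astrocyte-like cells had 0.161% and 0.193%, and neuroblast-like cells 0.241% and 0.345%. Microglia-like cells, the brain's resident macrophages, had the highest share of the named classes with over 50 cells in each library, at 0.302% (0.293% to 0.311%) and 0.496% (0.489% to 0.502%).

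**Figure D1:**
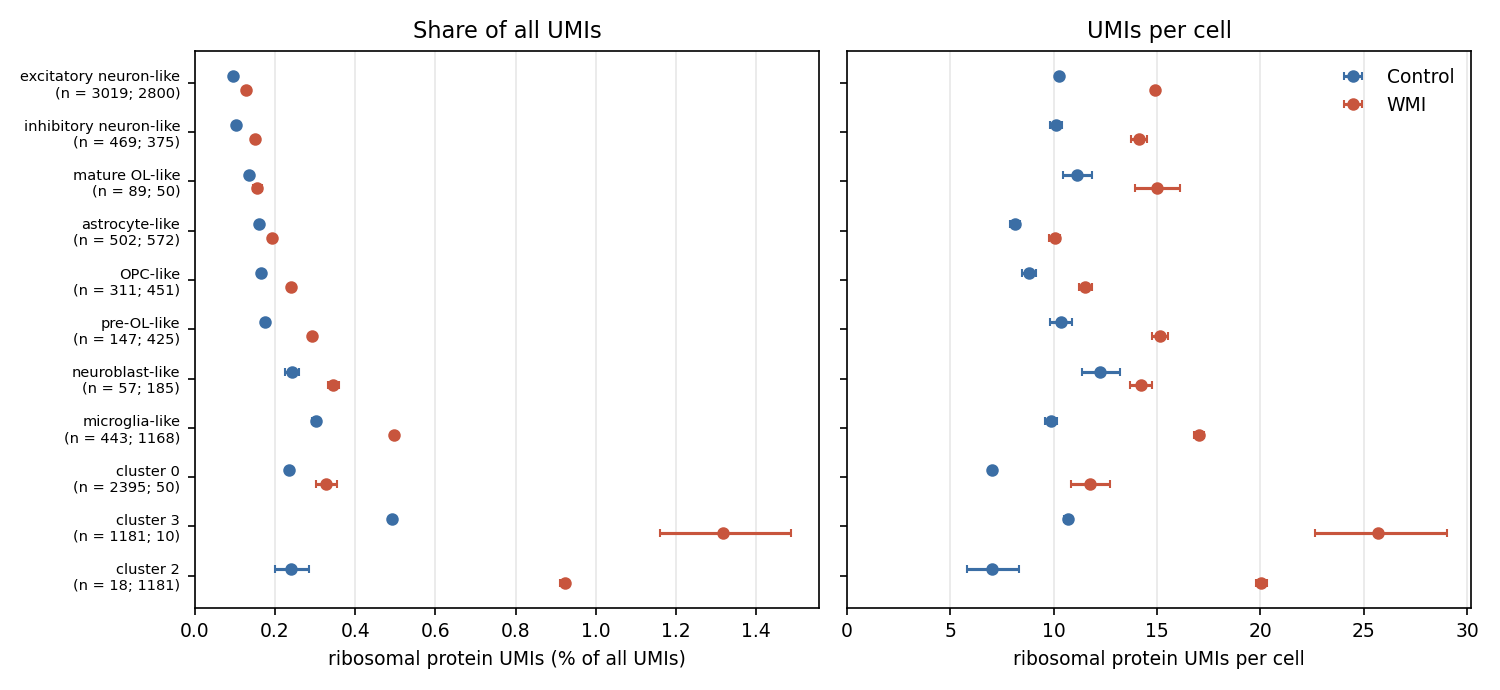
Ribosomal protein UMIs by cell class and library, as a percent of all UMIs (left) and per cell (right). Points are pooled over the cells of a class, bars are exact 95% Poisson intervals, and n gives the cells in control and WMI. On the left the named classes run from 0.0946% to 0.302% in control, whereas on the right they lie between 8.13 and 12.3 UMIs per cell, and each WMI point lies above its control point in both panels.

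The order of the shares was largely the reverse of the order of total UMIs. Per cell, the 5 main classes were close together in control, from 8.13 ribosomal protein UMIs in astrocyte-like to 10.2 in excitatory neuron-like cells, a 1.26-fold range, while all UMIs per cell ranged 3.32-fold, from 3265 in microglia-like to 10825 in excitatory neuron-like cells. In WMI the range was 1.69-fold, from 10.1 in astrocyte-like to 17.0 in microglia-like cells, against 3.39-fold for all UMIs. Over the 29 control clusters with at least 10 cells, the share and the mean UMIs per cell had a Spearman correlation of -0.94, and over 31 WMI clusters one of -0.96. Because the total is the denominator of the share, this is a description and carries no p. The correlation of ribosomal protein UMIs per cell with mean UMIs was 0.44 in control and -0.01 in WMI.

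**Figure D2:**
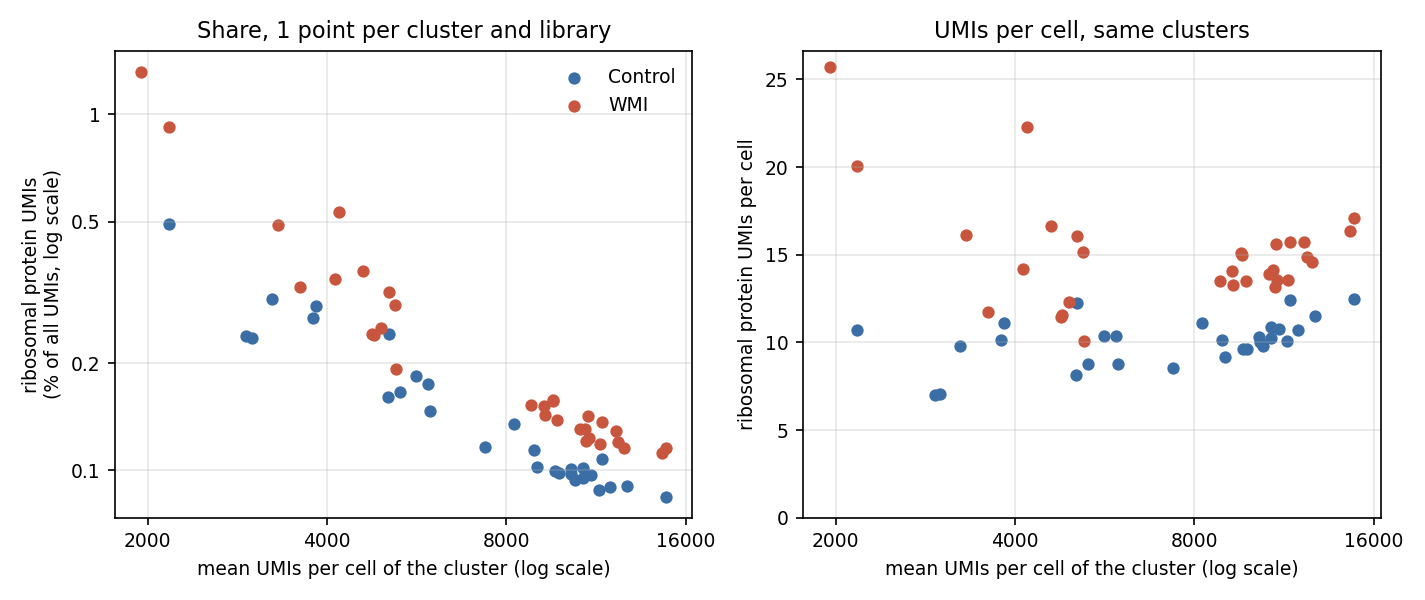
Ribosomal protein UMIs of each cluster with at least 10 cells against its mean UMIs per cell (log scale), as a share of all UMIs (left, log scale) and per cell (right, linear scale), 1 point per cluster and library. The share falls along the depth axis in both libraries, from 0.493% to 0.0843% in control, while control clusters hold 7.0 to 12.5 ribosomal protein UMIs per cell at any depth.

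Depth also mattered within a class. In excitatory neuron-like cells of 2000 to 4000 UMIs the share was 0.149% in control and 0.253% in WMI, at 4000 to 8000 UMIs 0.127% and 0.182%, at 8000 to 16000 UMIs 0.0940% and 0.134%, and above 16000 UMIs 0.0726% and 0.0950%. Across these classes of depth the mean total was 5.76-fold higher at the top than at the bottom in control and the ribosomal protein UMIs per cell 2.81-fold. Microglia-like cells of the WMI library were different: their share was 0.482% at 1000 to 2000 UMIs, 0.474% at 2000 to 4000 UMIs and 0.571% at 4000 to 8000 UMIs, against 0.312%, 0.323% and 0.256% in control. Over all kept cells, from under 2000 to over 16000 UMIs, total UMIs per cell were 13.9-fold higher in control and ribosomal protein UMIs 2.18-fold. A list of 12 abundant cytoplasmic mRNAs such as *Actb* and *Gapdh* was 1.81-fold higher over the same range, 20 ribosome assembly genes 7.24-fold and 8 RNAs that stay in the nucleus, such as *Malat1* and *Meg3*, 12.4-fold. In control, ribosomal protein mRNAs thus followed total depth nearly as little as other abundant cytoplasmic mRNAs and less than nuclear RNAs.

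In each class the share was higher in the WMI library. The fold was 1.35 (1.33 to 1.37) in excitatory neuron-like, 1.45 (1.39 to 1.51) in inhibitory neuron-like, 1.20 (1.15 to 1.25) in astrocyte-like, 1.58 (1.53 to 1.63) in OL-lineage and 1.64 (1.59 to 1.69) in microglia-like cells, and 1.49 over all kept cells (log2 ratio 0.57, 0.56 to 0.59). The microglia-like classes were made up differently, as 420 of the 443 control cells lay in cluster 9 and 1000 of the 1168 WMI cells in cluster 5. Cluster 5 held 23 control cells. The first of its 10 leading genes was *Apobec1*, and *Plin2* and *Gpnmb* stood near the end of that list. In cluster 5 the shares were 0.290% and 0.488%, a fold of 1.68 (1.49 to 1.91). Within the OL lineage OPC-like cells had a fold of 1.45 (1.38 to 1.52), pre-OL-like cells one of 1.66 (1.57 to 1.76) and mature OL-like cells one of 1.16 (1.05 to 1.27). All 29 clusters with at least 10 cells in each library had the higher share in WMI, by 1.08 to 3.86-fold with a median of 1.37, and all 29 also had more ribosomal protein UMIs per cell. The 3.86-fold was that of cluster 2, whose 18 control cells held 126 ribosomal protein UMIs. Cluster 3, at 2.67-fold, had 10 WMI cells, of which 4 held 81.3% of their ribosomal protein UMIs. Without cells of at least 1% ribosomal protein UMIs, left out by the measure itself, the fold of cluster 3 was 0.738. At matched depth the WMI share was higher in 16 of 16 pairs of a class and a range of UMIs, by 1.05 to 2.23-fold. These classes leave out the unnamed clusters 0 and 3, whose control cells had medians of 2886 and 1765 UMIs. The shallow excitatory ranges therefore lack them, and matched depth was not compared with them counted as excitatory neuron-like.

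The excitatory result turned on which cells were given that name. Clusters 0 and 3, shallow cells with no name, held 2395 and 1181 control cells but 50 and 10 WMI cells, and had shares of 0.235% and 0.493% in control. Cluster 0 had 8 pan-neuronal markers, while cluster 3 had 6, where 7 were needed to count as neuronal. When both clusters were counted as excitatory neuron-like, the control share became 0.142% at a median of 3522 UMIs and the WMI share 0.130% at a median of 9653 UMIs, so that the direction turned (log2 ratio -0.13). Ribosomal protein UMIs per cell stayed lower in control in that setting, at 9.16 against 14.9.

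Mitochondrial UMIs moved with the result. Their share was higher in WMI by 4.29-fold in excitatory neuron-like, 2.95-fold in inhibitory neuron-like, 1.88-fold in astrocyte-like, 5.33-fold in OL-lineage and 3.31-fold in microglia-like cells. When excitatory neuron-like cells were set side by side within ranges of the mitochondrial share, the WMI fold in ribosomal protein share was 1.09 at under 0.05%, 1.02 at 0.05 to 0.1%, 1.09 at 0.1 to 0.2%, 1.16 at 0.2 to 0.5%, 1.19 at 0.5 to 1% and 1.48 at 1% or more. In OL-lineage cells the matched folds, all under 1%, lay between 1.10 and 1.31. Astrocyte-like cells were below 1 in the lowest ranges, with 0.993 at under 0.05% and 0.928 at 0.05 to 0.1%, near 1 in the next, with 1.03 at 0.1 to 0.2% and 1.10 at 0.2 to 0.5%, and higher in the last, with 1.44 at 0.5 to 1% and 1.53 at 1% or more. In microglia-like cells the matched folds, also all under 1%, lay between 1.10 and 1.61. Over the 22 matched pairs of the 4 classes examined, WMI was higher in 20, with a median fold of 1.17. In OL-lineage and microglia-like cells the matched fold was below the pooled one in every range under 1%. The range of 1% or more was not compared in these classes, whose WMI cells had 1.00% and 0.920% mitochondrial UMIs. In excitatory neuron-like cells the matched fold was below the pooled one in all but the highest range. In astrocyte-like cells it was above the pooled one in the highest ranges. *Malat1*, a nuclear RNA, was 0.779 times its control share in WMI excitatory neuron-like cells and 1.20 times in astrocyte-like cells. The part of cell or RNA quality in the difference was not tested.

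A small set of WMI cells held much of the excess. Cells in which at least 1% of UMIs came from ribosomal protein genes, a limit set after the values were seen, numbered 16 of 8755 in control (0.183%, 95% exact binomial interval 0.104% to 0.297%) and 351 of 7571 in WMI (4.64%, 4.17% to 5.13%). The 351 cells held 20.1% of the ribosomal protein UMIs of the WMI library. They made up 20.3% of the 1181 WMI cells of cluster 2, which had microglial, astrocytic and neuronal genes together, and 7.02% of WMI microglia-like cells (82 of 1168), but 0.648% of OL-lineage and 0.0714% of excitatory neuron-like cells. No control microglia-like cell reached the limit (0 of 443, where the 3 counts that a count of 0 allows would be a share of up to 0.677%). Without these cells the WMI fold was 1.18 rather than 1.64 in microglia-like, 1.51 rather than 1.58 in OL-lineage and 1.35, as before, in excitatory neuron-like cells. Because the cells were left out by the measure itself and nearly all were from WMI, a lower fold follows from the choice, and its size shows only how much of the pooled fold they carried. The median microglia-like cell had 0.294% in control and 0.354% in WMI, a 1.20-fold difference, while the 99th percentile was 0.714% in control and 3.39% in WMI.

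The 82 WMI microglia-like cells above the limit had a median of 3420.5 UMIs against 3057.5 in the other WMI microglia-like cells, so they were not shallower. Their ribosomal protein share, by which they were chosen, was 2.15% against 0.358%. The 12 abundant cytoplasmic mRNAs, which the choice did not use, were also higher, at 0.588% against 0.126%, and so were the 20 translation factors and other TOP-type genes, at 0.291% against 0.0921%. Nuclear RNAs were almost level, at 3.90% against 3.83%, and ribosome assembly genes were 1.23-fold higher, at 0.0460% against 0.0374%. Mitochondrially encoded genes were 1.72% against 0.853%. Microglial markers were 1.02% of UMIs against 0.435%, and pan-neuronal markers 0.684% against 0.773%. Cluster 9, which held 420 of the 443 control microglia-like cells, had 12 of its 168 WMI cells above the limit, and in those mitochondrial UMIs were 0.629% against 0.712% in the rest. Cluster 9 alone had a ribosomal protein share of 0.303% in control and 0.533% in WMI, a 1.76-fold difference (1.68 to 1.84), which was 1.20-fold without the cells above the limit, left out by the same measure.

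**Figure D3:**
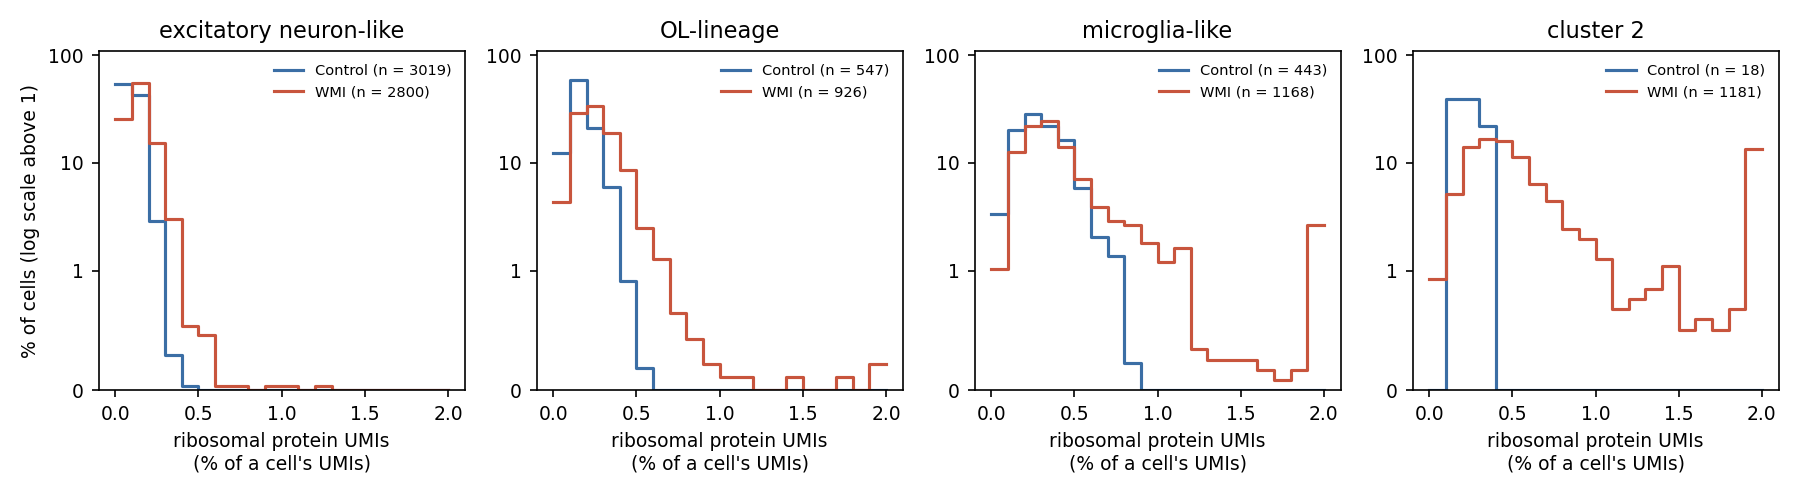
Distribution of the ribosomal protein share over cells, in bins of 0.1% (x axis, percent of a cell's UMIs), for 4 groups of cells and both libraries. The y axis gives the percent of cells, linear up to 1 and logarithmic above, and the last bin holds all cells at 1.9% or more. In microglia-like cells and cluster 2 the WMI line continues past 1%, where 7.02% and 20.3% of WMI cells lie. No control cell of these groups lies there, but cluster 2 has only 18 control cells, so its absence says little. The 3 counts that a count of 0 allows would be 16.7% of those 18 cells, against 0.677% of the 443 microglia-like control cells.

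Single members were compared as counts per 1000000 UMIs (CPM) of a class, for genes whose 2 libraries together held at least 200 UMIs, and a member was counted when the CPM differed by at least 1.5-fold. In all kept cells 79 of the 83 members reached that depth. Of these, 34 were higher in WMI by 1.5-fold, against 9.78% of the 15392 genes tested, and 0 were lower, against 4.72%. The median log2 ratio of the 79 was 0.53, while that of all genes tested was 0.04, and 77 of 79 were above 0. Without the cells above the 1% limit 5 of 79 were higher (9.15% of all genes in those cells) and 1 lower, and with only cells under 1% mitochondrial UMIs 4 of 79 (7.87% of all genes) and 1 lower. In excitatory neuron-like cells 16 of 75 members were higher (5.27% of all genes) and 0 lower (3.54%), with a median log2 ratio of 0.41 against 0.00 for all genes tested. In these 2 sets of cells most members had the same direction and a difference under 1.5-fold.

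**Figure D4:**
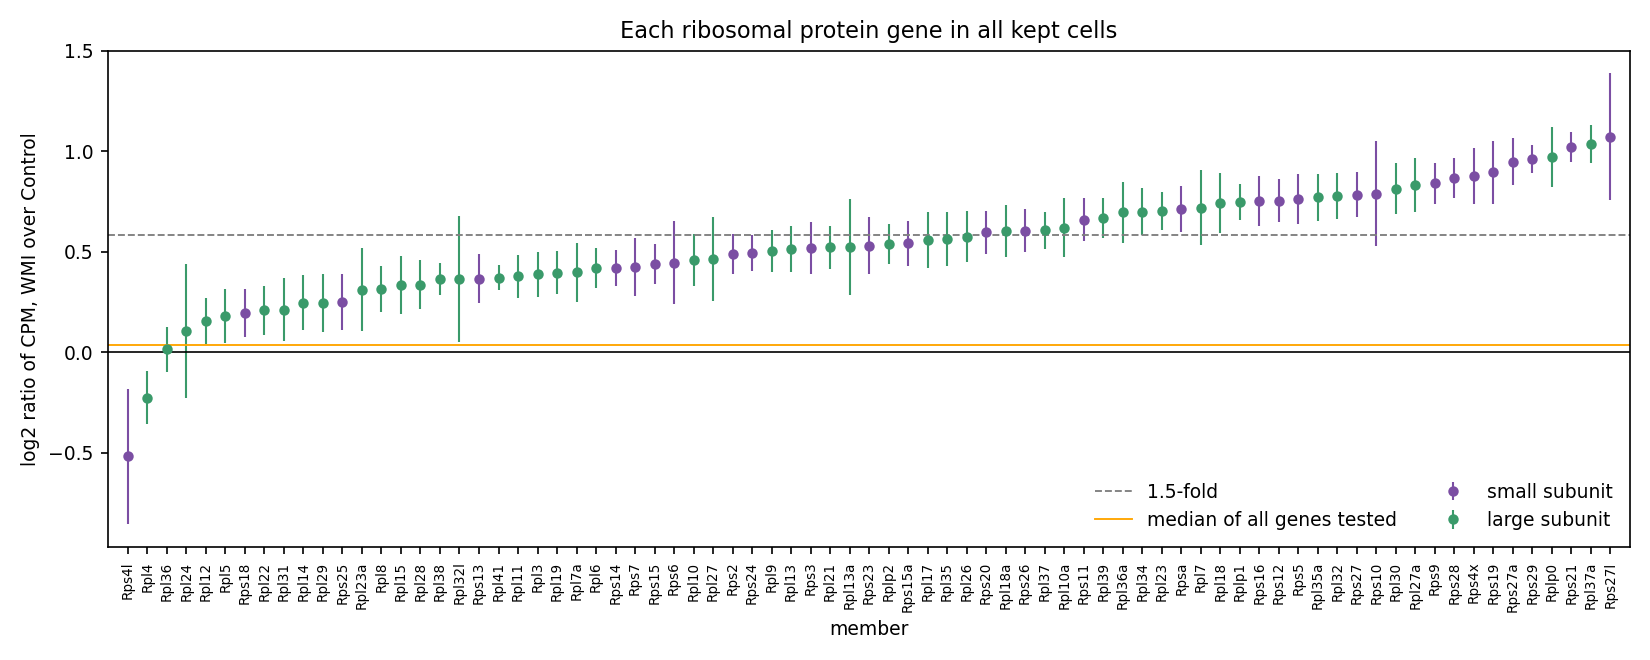
Log2 ratio of CPM, WMI over control, of 77 members with at least 200 UMIs in all kept cells, ordered by ratio and coloured by subunit, with 95% counting intervals. The members *Rps4l* and *Rpl4*, lie below 0 with their whole interval, while 73 lie above 0 with theirs, and the orange line at 0.04 marks the median of all genes tested.

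Among small-subunit proteins, *Rps21* and *Rps29*, both very small proteins, were among the most counted members and among those that differed most. *Rps21* had 2217 UMIs in control and 4348 in WMI (40.1 and 81.3 CPM, log2 ratio 1.02, 0.95 to 1.09). *Rps29*, a zinc-binding protein, had 2406 and 4533 UMIs (43.5 and 84.8 CPM, 0.96, 0.89 to 1.03). Both were higher by over 1.5-fold in the WMI cells of each neuronal, OL-lineage and microglial class, and in astrocyte-like cells *Rps21* had 40.9 and 67.0 CPM and *Rps29* 50.7 and 70.7 CPM. *Rpsa*, a small-subunit protein also known as the laminin receptor, had 1030 and 1632 UMIs (0.71, 0.60 to 0.83). *Rps28* had 1298 and 2291 UMIs over all kept cells (0.87, 0.77 to 0.97).

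Among large-subunit proteins, *Rpl37a*, a zinc-finger protein, had 1393 UMIs in control and 2762 in WMI (25.2 and 51.7 CPM, log2 ratio 1.04, 0.94 to 1.13). It had the highest log2 ratio in both excitatory neuron-like cells (0.96, 0.81 to 1.12) and inhibitory neuron-like cells (1.20, 0.78 to 1.62), and the second highest in microglia-like cells (1.16, 0.81 to 1.52). *Rpl41*, the smallest ribosomal protein and the most counted member, had 3925 and 4912 UMIs (71.0 and 91.9 CPM), a smaller difference (0.37, 0.31 to 0.43), and *Rpl38* was alike with 2238 and 2785 UMIs (0.36, 0.28 to 0.44). These totals are UMIs as counted, not per length, and give no order of mRNA amounts between genes.

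The stalk proteins, which recruit elongation factors to the large subunit, were all higher in WMI. *Rplp0*, the base of the stalk, had 554 and 1051 UMIs (log2 ratio 0.97, 0.82 to 1.12), *Rplp1* had 1631 and 2645 UMIs (0.75, 0.66 to 0.84) and *Rplp2* had 1372 and 1927 UMIs (0.54, 0.44 to 0.64).

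Other large-subunit members had ratios near or below 0. *Rpl4*, which lines the exit tunnel of the new protein, had 1024 UMIs in control and 847 in WMI (18.5 and 15.8 CPM, log2 ratio -0.23, -0.36 to -0.09). In excitatory neuron-like cells its interval included 0 (377 and 341 UMIs, -0.14, -0.36 to 0.07), and in the other classes it had under 200 UMIs. *Rpl36* had 1292 and 1262 UMIs (0.01, -0.10 to 0.13), so a difference was not detectable at this depth. *Rpl12*, at the base of the stalk, had 1161 and 1251 UMIs (0.16, 0.04 to 0.27). *Rpl5*, which binds 5S ribosomal RNA together with *Rpl11*, had 845 and 926 UMIs (0.18, 0.04 to 0.32). The ratios of these 4 members lay below the median of 0.53 in the same cells.

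Fewer members could be followed in the smaller classes. In inhibitory neuron-like cells 11 members reached 200 UMIs, of which 7 were higher in WMI (3.59% of all genes) and 0 lower (2.38%). The highest after *Rpl37a* was *Rps29* with 115 and 202 UMIs (log2 ratio 1.19, 0.85 to 1.53), followed by *Rplp1* with 85 and 122 UMIs (0.90, 0.49 to 1.32), and the lowest were *Rpl11* (0.34, -0.06 to 0.74), *Rpl41* (0.39, 0.10 to 0.68) and *Rps24* (0.49, 0.08 to 0.89). In astrocyte-like cells 10 members reached it, 1 was higher (10.0% of all genes) and 0 lower (5.67%), which is no more than among all genes. That member was *Rps21* (104 and 200 UMIs, 0.71, 0.36 to 1.07), next came *Rplp1* (0.58, 0.16 to 1.01) and *Rpl41* (0.48, 0.20 to 0.76), and the lowest were *Rpl37* (98 and 107 UMIs, -0.10, -0.51 to 0.31) and *Rps24* (0.14, -0.24 to 0.51). Most members lay under the minimum in these classes. In inhibitory neuron-like cells 61 of these 72 had ratios above 0 and 8 below it, and in astrocyte-like cells 49 of 73 were above and 21 below, with a median of 0.19 over the 80 members with UMIs in both libraries.

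In OL-lineage cells 41 members were deep enough, 25 were higher in WMI (5.20% of all genes) and 0 lower (3.88%). The highest was *Rps21* with 153 and 541 UMIs (47.1 and 111 CPM, log2 ratio 1.24, 0.98 to 1.51), then *Rpl27a* with 45 and 157 UMIs (1.22, 0.74 to 1.74) and *Rps28* with 82 and 277 UMIs (1.18, 0.82 to 1.55). The lowest were *Rpl34* (0.30, -0.11 to 0.72), *Rpl3* (0.32, -0.08 to 0.74), a protein of the peptidyl transferase region, and *Rpl21* (0.35, -0.06 to 0.78). With only cells under 1% mitochondrial UMIs, 4 of 16 members passed (3.66% of all genes in those cells). The minimum of 200 UMIs was reached mainly through the larger WMI class, since 29 of the 41 had under 100 UMIs in control, so these counts leave out members that were low in WMI. Of the 42 under the minimum, 35 had ratios above 0 and 3 below it, and the median over the 79 members with UMIs in both libraries was 0.61.

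In microglia-like cells 57 members were deep enough, 41 were higher in WMI (15.6% of all genes) and 0 lower (6.46%). The highest was *Rps4x* with 36 and 237 UMIs (log2 ratio 1.25, 0.74 to 1.79), followed by *Rpl37a* with 77 and 476 UMIs and *Rps28* with 66 and 403 UMIs (1.14, 0.76 to 1.54). The lowest were *Rpl28* (63 and 185 UMIs, 0.08, -0.34 to 0.52), *Rpl36* (0.23, -0.20 to 0.68) and *Rpl6* (0.23, -0.12 to 0.60). Here too 52 of the 57 had under 100 UMIs in control. Of the 26 under the minimum, 18 had ratios above 0 and 4 below it, and the median over the 79 members with UMIs in both libraries was 0.70. Without the cells above the 1% limit 3 of 37 members passed, and with only cells under 1% mitochondrial UMIs 15 of 34 did, against 15.3% of all genes in either setting. In excitatory neuron-like cells the highest after *Rpl37a* were *Rps21* with 868 and 1667 UMIs (0.94, 0.82 to 1.06) and *Rpl18* with 193 and 368 UMIs (0.93, 0.68 to 1.19), and the lowest after *Rpl4* were *Rpl36* (-0.03, -0.22 to 0.16) and *Rpl29* (0.01, -0.22 to 0.24).

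The make-up of the ribosomal protein UMIs, each member as a percent of their sum, was alike in different cells. Over the 74 members with at least 200 UMIs in each library, the Pearson correlation of the log2 make-up between pairs of the 5 main classes was 0.84 to 0.92 in control and 0.86 to 0.95 in WMI, and between the libraries within a class 0.89 to 0.95. The pairs share their library or their class, and gene-specific capture is common to all of them. The highest class exceeded the lowest by a median of 1.38-fold in control and 1.40-fold in WMI.

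*Rpl15*, a large-subunit protein, differed most between classes. It was 1.27% of the ribosomal protein UMIs in excitatory neuron-like and 0.968% in inhibitory neuron-like control cells, but 0.613% in astrocyte-like, 0.419% in OL-lineage and 0.594% in microglia-like ones. In WMI the values were 1.19%, 1.06%, 0.452%, 0.541% and 0.447%, so that it was higher in neurons than in glia in both libraries. *Rpl31* ranged from 0.434% in microglia-like to 0.854% in excitatory neuron-like control cells, and in WMI from 0.447% in microglia-like to 0.868% in inhibitory neuron-like cells. *Rpl5* was highest in excitatory neuron-like cells (1.22% in control and 1.02% in WMI) and lowest in microglia-like cells (0.709% and 0.553%). Its partner *Rpl11* was highest in inhibitory neuron-like cells (2.27% and 1.98%) and lowest in microglia-like cells (1.03% and 1.17%). These 4 were among the members of the widest range, so their order is a description of the extremes.

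**Figure D5:**
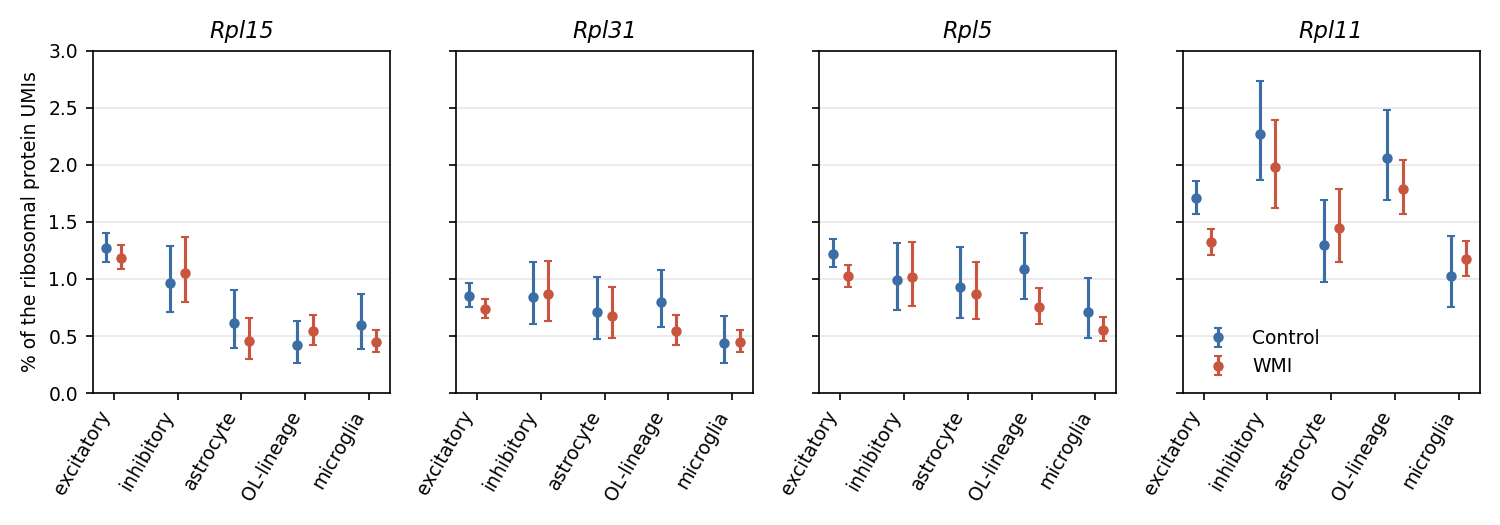
Share of the ribosomal protein UMIs (percent, y axis) taken by 4 of the members that differed most between classes, in 5 cell classes and both libraries, with exact 95% binomial intervals. *Rpl15* is at 0.968% or more in both neuronal classes and at 0.613% or less in the 3 glial classes, in either library.

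Small-subunit members together took 41.5% (41.2% to 41.9%) of the ribosomal protein UMIs in control and 44.4% (44.2% to 44.7%) in WMI. Single members did not all move alike: *Rps21* took 2.74% and 3.73% and *Rps29* 2.97% and 3.89%, whereas *Rps18* took 1.37% and 1.06%. The difference of the subunit had the same direction in excitatory neuron-like (41.4% and 43.6%), astrocyte-like (41.7% and 44.4%), OL-lineage (42.1% and 44.5%) and microglia-like cells (43.1% and 46.4%). The astrocyte-like intervals overlapped (40.2% to 43.2% and 43.1% to 45.7%). In inhibitory neuron-like cells the values were 43.0% (41.6% to 44.5%) and 42.3% (41.0% to 43.7%), and the intervals overlapped. Measured within the ribosomal protein UMIs, *Rps27l*, *Rpl37a*, *Rps21*, *Rplp0*, *Rps29* and *Rps27a* gained most in WMI, by log2 ratios of 0.38 to 0.50, and *Rps4l*, *Rpl4*, *Rpl36*, *Rpl24*, *Rpl12* and *Rpl5* lost most, from -1.09 to -0.39.

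The 4 members on the X chromosome were *Rps4x*, *Rpl10*, *Rpl36a* and *Rpl39*. Over all kept cells *Rps4x* had 652 UMIs in control and 1159 in WMI (log2 ratio 0.88, 0.74 to 1.02), *Rpl36a* 584 and 915 (0.70, 0.54 to 0.85), *Rpl39*, which lines the exit tunnel, 1332 and 2048 (0.67, 0.57 to 0.77) and *Rpl10*, which joins the large subunit late, 851 and 1132 (0.46, 0.33 to 0.59). In all kept cells their ratios lay within the range of the autosomal members, while in microglia-like cells *Rps4x* had the highest ratio of the 57 members tested (1.25). Since the libraries differed in the sexes of their cells, both kinds of cell were also set side by side within the WMI library. The 2568 WMI cells with both Y-linked and *Xist* or *Tsix* UMIs were left out. These marks therefore do not sort all cells of that library by sex. There the ribosomal protein share of excitatory neuron-like cells was 0.127% with Y-linked UMIs only and 0.133% with *Xist* or *Tsix* UMIs only, and that of microglia-like cells 0.483% and 0.485%. Over all kept WMI cells it was 0.201% (0.198% to 0.203%) and 0.238% (0.236% to 0.241%), at medians of 5820 and 4272 UMIs. With only cells of the first kind in both libraries the log2 ratio of the share was 0.44 in excitatory neuron-like cells (0.44 with all cells) and 0.69 in microglia-like cells (0.71 with all cells). The pooled share does not speak for the 4 X-linked members. Kept WMI cells with Y-linked UMIs only held 14584038 UMIs and those with *Xist* or *Tsix* UMIs only 13740025. Of these, *Rps4x* had 267 and 335, *Rpl10* 256 and 321, *Rpl36a* 231 and 238 and *Rpl39* 493 and 615. In microglia-like cells *Rps4x* had 45 of 986416 and 85 of 1362559 UMIs. The part of sex in the ratios of these members was not tested.

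The tissue-restricted paralogs *Rpl10l*, *Rpl39l* and *Rpl3l* had few UMIs. *Rpl10l*, a retrogene of *Rpl10* used in the testis, had 0 UMIs in control and 1 in WMI. *Rpl39l*, the testis-enriched relative of *Rpl39*, had 0 and 9, and *Rpl3l*, the relative of *Rpl3* in striated muscle, 32 and 22, while *Rpl3* itself had 1166 and 1475 (log2 ratio 0.39, 0.28 to 0.50). The pseudogene *Rpl6l* had 3 and 2. *Rps4l*, a retrocopy related to *Rps4x*, had 185 and 125 UMIs (-0.52, -0.86 to -0.18), the lowest ratio of the 79, opposite to *Rps4x*. *Rps27l*, a paralog of *Rps27* and a known p53 target, had 127 and 258 UMIs (1.07, 0.76 to 1.39), and *Rps27* had 1063 and 1772 (0.79, 0.67 to 0.90), so that their intervals overlapped. *Rpl24*, at the bridge between the subunits, was the least counted of the broadly used members named here, with 149 and 155 UMIs.

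Reads of near-identical copies cannot be placed with certainty, so the counts of single members are uncertain. The tables list 299 genes with -ps symbols, and 60 of the 79 members had at least 1 such copy named after them. *Rpl31* and *Rps12* had the most, 24 each. Across the 79 members the number of these named -ps genes had a Spearman correlation of -0.20 with control UMIs and of -0.08 with the log2 ratio. Copies under other symbols were not counted, so this is not the number of all near-identical copies. Intron length, exon length and the number of small nucleolar RNA genes inside a member had correlations of -0.05, -0.11 and -0.01 with the log2 ratio. The 26 members with the shortest introns had a median log2 ratio of 0.56 and the 27 with the longest introns one of 0.52. Genes are not independent replicates, and these are descriptions.

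Ribosomal protein genes outside the symbol rule were mixed. Over all kept cells 2 of 6 passed 1.5-fold upward and 0 downward, with a median log2 ratio of 0.29. Of all genes tested in these cells, 9.78% passed upward and 4.72% downward, which holds for each list below over all kept cells. *Fau*, which encodes a small-subunit protein fused to a ubiquitin-like domain, was the highest with 1673 and 2699 UMIs (0.74, 0.65 to 0.83), and *Rpl7l1* the lowest with 624 and 582 UMIs (-0.05, -0.22 to 0.11). Of 20 translation factors and other TOP-type genes 1 passed upward and 0 downward (median 0.21). It was *Eef1b2*, an exchange factor of elongation (673 and 1038 UMIs, 0.67, 0.53 to 0.82), and the lowest was the small nucleolar host gene *Snhg8* (-0.20, -0.39 to -0.01). Of 20 ribosome assembly genes 0 passed in either direction (median 0.00), between *Nop10* (-0.44, -0.62 to -0.26) and *Nop56* (0.42, 0.32 to 0.52), both parts of small nucleolar ribonucleoproteins.

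Mitochondrial ribosomal proteins, which are encoded in the nucleus and serve another ribosome, did not share the direction. Of 77 tested, 0 passed upward (9.78% of all genes) and 3 downward (4.72%), with a median log2 ratio of -0.13, between *Mrpl41* (1980 and 955 UMIs, interval -1.12 to -0.89) and *Mrps28* (1209 and 1449 UMIs, 0.31). The 12 abundant cytoplasmic mRNAs had 3 upward and 1 downward and a median of 0.01. They ranged from *Tmsb10*, an actin-binding peptide (2406 and 1496 UMIs, -0.64, -0.73 to -0.54), to *Ftl1*, the ferritin light chain (668 and 3439 UMIs, 2.41, 2.29 to 2.53). Of the 8 nuclear RNAs 1 passed upward and 0 downward (median -0.25), between *Miat* (-0.50) and *Neat1* (2.14). All 14 mitochondrially encoded genes tested passed upward (median 2.04), from *mt-Nd5* (1.06) to *mt-Nd3* (2.83). In OL-lineage cells 3 of 7 assembly genes and 4 of 13 TOP-type genes passed upward, where 5.20% of all genes did, and in microglia-like cells 0 of 3 and 4 of 10, where 15.6% did.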

How the data were processed

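The authors deposited, per library, a table of UMI counts (whole numbers, not normalized) for 55450 genes and all called barcodes. The labels name Seurat and the build mm9, the aligner and counter are not given in the sources used here, and all 55450 identifiers and symbols matched GENCODE M21 (GRCm38), whose positions were used. Cells with at least 1000 UMIs, at least 500 genes and at most 10% mitochondrial UMIs were kept, predicted doublets were removed (785 control and 542 WMI barcodes, and 94.4% and 88.2% of artificial doublets were recognised), and both libraries were integrated and clustered with Seurat 5.3.0 (R 4.3.3) at resolution 0.8 without the members and lists. Clusters were named from marker lists, with thresholds chosen after seeing the data. UMIs were summed per class and library. With 1 library per group no test was run. Poisson and conditional binomial 95% intervals cover counting error only. Their check on simulated data drew Poisson sums without spread between cells, so it could not test that spread. Members were counted at 1.5-fold. Members and lists were chosen with earlier results of these data known. Genes were named by a fixed rule: the most and least counted members, X-linked members, paralogs and stalk proteins, the 3 highest and lowest ratios per class, the 5 widest ranges of make-up, and the extremes of each list. Of the genes this rule gave, 2 are not reported here, nor drawn in figures. *Rpl12*, *Rps12*, *Rps27a* and further values of genes named for 1 class were added after values were seen. Alternatives changed the denominator, cells, clusters, scaling (edgeR 4.0.16), minimum count and fold.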

Additional observations from a re-analysis of the deposited data

Results flagged for a closer look

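Genes with -ps symbols, copies of ribosomal protein genes that the rule left out, carried UMIs in both libraries. In kept cells 132 of 299 were detected in control and 131 in WMI. They held 37.7 UMIs per 1000000 in control (95% interval 36.1 to 39.3) and 46.7 in WMI (44.9 to 48.5), which was 2.57% and 2.14% of the UMIs of the members. This stood out because it is a signal outside the comparisons that was higher in WMI than in control. Whether these UMIs came from the copies or from the members was not tested.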

How the results depend on the processing

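Values here are log2 ratios of the ribosomal protein share (WMI over control), then counts of members past 1.5-fold upward. Of 67 recomputed ratios 66 stayed above 0 and 36 within the counting interval. The exception was excitatory neuron-like cells with clusters 0 and 3, at -0.13. The mean share over cells gave 0.75 in all kept, 0.54 in excitatory, 0.61 in inhibitory, 0.32 in astrocyte-like and 0.66 in microglia-like cells. Keeping doublets gave 0.62 in all kept, 0.47 in excitatory and 0.72 in OL-lineage cells. Cells under 1% mitochondrial UMIs gave 0.23 in all kept, 0.37 in excitatory, 0.20 in astrocyte-like, 0.40 in OL-lineage and 0.47 in microglia-like cells. Cells of 3000 to 10000 UMIs gave 0.65 in all kept, 0.58 in excitatory, 0.60 in inhibitory and 0.87 in microglia-like cells. Without clusters at least 90% from 1 library the ratio was 0.51 in all kept and 0.81 in microglia-like cells. Another setting used clusters with at least 10 cells in each library. Each cluster was weighted by its cells in both libraries together, with the same weight in each library. This gave 0.93 in all kept, 0.60 in OL-lineage and 0.78 in microglia-like cells. In all kept cells it gives large weights to cluster 2, with 18 control cells, and cluster 3, with 10 WMI cells. Cells with Y-linked UMIs only gave 0.60 in all kept cells. UMIs per cell, chosen after seeing the data like the next settings named so, gave 0.74 in all kept, 0.54 in excitatory, 0.48 in OL-lineage and 0.79 in microglia-like cells. Without cells of at least 1% ribosomal protein UMIs (also chosen so) it was 0.28 in all kept, 0.59 in OL-lineage and 0.24 in microglia-like cells.

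Of 54 recomputed counts 30 stayed within 1.5 times. Here the counts are given without the share of all genes past the fold. They show only how the number of members moved, and not whether it exceeded that share. The TMM factors (0.965 in control and 1.04 in WMI in astrocyte-like cells) were applied in the reverse direction. Their counts, such as 2 members in astrocyte-like cells rather than 1, therefore do not show TMM scaling, though they are among the 54. A minimum of 50 UMIs, which tests more members, gave 29 in inhibitory, 9 in astrocyte-like and 42 in OL-lineage cells. A fold of 2 gave 3 in all kept, 0 in excitatory, 2 in inhibitory, 0 in astrocyte-like, 7 in OL-lineage and 6 in microglia-like cells. Cells under 1% mitochondrial UMIs gave 4 in all kept, 0 in astrocyte-like, 4 in OL-lineage and 15 in microglia-like cells. Leaving out clusters mostly from 1 library gave 2 in microglia-like cells, where 3 members could be tested. Cells with Y-linked UMIs only gave 0 of 1 in inhibitory, 0 of 1 in astrocyte-like, 3 of 3 in OL-lineage and 2 of 3 in microglia-like cells. Scaling to cell number (chosen after seeing the data) gave 52 in all kept, 28 in excitatory and 2 in astrocyte-like cells, and leaving out cells of at least 1% (also so) 5 in all kept and 3 in microglia-like cells. Where fewer members could be tested the counts are lower by construction, and otherwise the cause was not tested. No paired analysis was possible because each group is 1 library. A single library per group, few ribosomal protein UMIs per cell and class totals under 200 UMIs for most members of small classes limit what could be seen.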

Other observations

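Barcodes under 1000 UMIs, which belong to no class, also held ribosomal protein UMIs. There were 739 in control and 208 in WMI, with 3.68 and 4.32 such UMIs per barcode, or 0.501% (0.482% to 0.520%) and 0.613% (0.574% to 0.655%) of their UMIs, and 79 members were detected in each library. Their make-up had a Pearson correlation on the log2 scale of 0.86 with that of the kept control cells over the 63 members with at least 20 UMIs. Predicted doublets held 11038 ribosomal protein UMIs in 785 control and 13024 in 542 WMI barcodes, at shares of 0.104% and 0.190%.

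Cycling cells (cluster 26, unnamed) had 0.147% in control (36 cells) and 0.317% in WMI (74 cells), a 2.16-fold difference (1.91 to 2.46). In cluster 2 the 240 WMI cells with at least 1% ribosomal protein UMIs had abundant cytoplasmic mRNAs at 0.989% of UMIs against 0.158% in the remaining cells, nuclear RNAs at 4.52% against 4.95%, and mitochondrially encoded genes at 2.67% against 1.29%. In these cells *Rps21* made up 2.91% of the ribosomal protein UMIs against 3.62% in the rest, and *Rpl4* 0.472% against 0.871%.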
